A study of Homo sapiens with 6 samples.

Results

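The genes described here were 43 genes of mitosis, which encode kinases of mitotic entry, the spindle assembly checkpoint, the kinetochore and the spindle. They were taken by name, and each was represented by 1 probe set of the array, the one with the highest mean over all arrays among those annotated to that gene alone. All 43 had such a probe set, out of 19775 genes measured in this way. The cells were MCF-10A, an immortalized human mammary epithelial line that is not transformed. One group carried Crb3, a polarity protein of the apical membrane, introduced with the retroviral vector pNG (CRB3-expressing cells, 3 arrays), and the other carried the empty pNG vector (vector control cells, 3 arrays). Both groups had been infected, selected with puromycin and grown in the same complete MCF-10 medium as proliferating monolayers, and RNA was taken at 70% confluence. Each group was an infected and selected population whose triplicate RNA was not stated to come from separate infections. The spread that the p-values rest on is that between these samples and may be technical.

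Mitosis begins when CDK1 bound to cyclin B is activated, after which condensin compacts the chromosomes and the spindle captures them through kinetochores, the protein assemblies built on centromeres. The spindle assembly checkpoint holds the cell before anaphase until every kinetochore is attached, by restraining CDC20 and the anaphase-promoting complex. Most of the genes involved are transcribed late in the cell cycle, so their mRNAs are known as markers of dividing cells. In bulk RNA of this kind, fewer cells in mitosis and less mRNA in each dividing cell cannot be told apart. The members are read on the same 6 arrays and share that source, so counts over them are not counts of independent observations.

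Expression is given throughout as the normalized log2 intensity of a probe set, and a difference is the mean of CRB3-expressing cells minus the mean of vector control cells. The introduced gene CRB3 itself was read at 12.16, 12.00 and 12.19 in the CRB3-expressing cells and at 7.90, 7.59 and 7.85 in the vector control cells, a log2 difference of 4.33. The median of all genes was close to 0 (0.0066). Of 10 mammary epithelial markers 6 were measured, with gene means between 10.65 and 13.58 in CRB3-expressing cells, and between 9.06 and 13.62 in vector controls. Of these, the keratin gene KRT14 was 3.57-fold and the E-cadherin gene CDH1 2.15-fold higher in CRB3-expressing cells (limma adjusted p = 5.93e-06 and 2.17e-05). The array means of 6 fibroblast markers lay between 6.05 and 6.13 in CRB3-expressing cells, and between 6.17 and 6.24 in vector controls. One of them, the decorin gene DCN, averaged 6.93 in CRB3-expressing cells, against 7.68 in vector controls, a difference of -0.76 (limma adjusted p = 0.00249) in the same direction as most of the mitotic genes, and its part in their difference was not tested. Those of 5 endothelial markers lay between 5.36 and 5.46 in CRB3-expressing cells, and between 5.31 and 5.39 in vector controls, and those of 5 of 6 blood cell markers lay between 5.51 and 5.72 in CRB3-expressing cells, and between 5.59 and 5.64 in vector controls. In each of these 3 lists, 3 genes had a mean under 6. CDKN2A, which is known to be deleted in this line, averaged 6.96 in CRB3-expressing cells, against 6.91 in vector controls, so a level near 7 was not shown to be above background. The 3′ minus 5′ difference of the ACTB control probe sets, a measure of RNA integrity, lay between -0.0086 and 0.0282 in CRB3-expressing cells, and between 0.0452 and 0.0855 in vector controls, so the groups did not overlap, while that of GAPDH did overlap. The part of this difference in the results below was not tested.

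The mitotic genes were lower in the CRB3-expressing cells by small amounts. The median log2 difference of the 43 genes was -0.18, which is a level 11.5% lower, and 41 of them had a mean difference below 0, against 47.7% of all genes. The other 2, SPC24 and CDC20, had a mean above 0, against 52.3% of all genes. Of the 43, 34 were lower on every CRB3-expressing array than on any vector control array, a pattern that 12.1% of all genes showed. The groups overlapped for the other 9, and 0 members were higher on every CRB3-expressing array, against 14.5% of all genes. With limma and Benjamini-Hochberg adjustment over all probe sets, 6 of the 43 were lower at an adjusted p under 0.05 and 0 were higher, where 1.77% of all genes were lower and 3.37% were higher by that test. These 6 were TOP2A, ASPM, HMMR, CDK1, DLGAP5 and CENPF. At an unadjusted limma p under 0.05, 24 members were lower and 0 higher, against 8.39% and 10.4% of all genes. The count of 6 changed with 1 array left out. It was 0 without CRB3-expressing replicate 2 or without vector control replicate 1, and 1 without CRB3-expressing replicate 3 or without vector control replicate 2. In these fits, which rest on fewer arrays, the median difference stayed between -0.191 and -0.1676. The shares of all genes passing in them are not given here.

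No member was past both thresholds of the study, a fold change over 1.5 with an adjusted p below 0.05. By limma, 0 of 43 were called lower and 0 higher, where 0.465% of all genes were called lower, 1.43% higher and 1.9% in either direction. CENPE alone had a mean difference beyond 1.5-fold, and its adjusted p from limma was 0.0789. The differences ran between -0.80 for CENPE and 0.06 for SPC24, with standard errors between 0.0588 and 0.205 and a median standard error of 0.069. The 95% intervals of 39 members did not reach a 1.5-fold decrease, and those of the other 4, CENPE, CENPF, SGO2 and ASPM, extended past it.

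**Figure D1:**
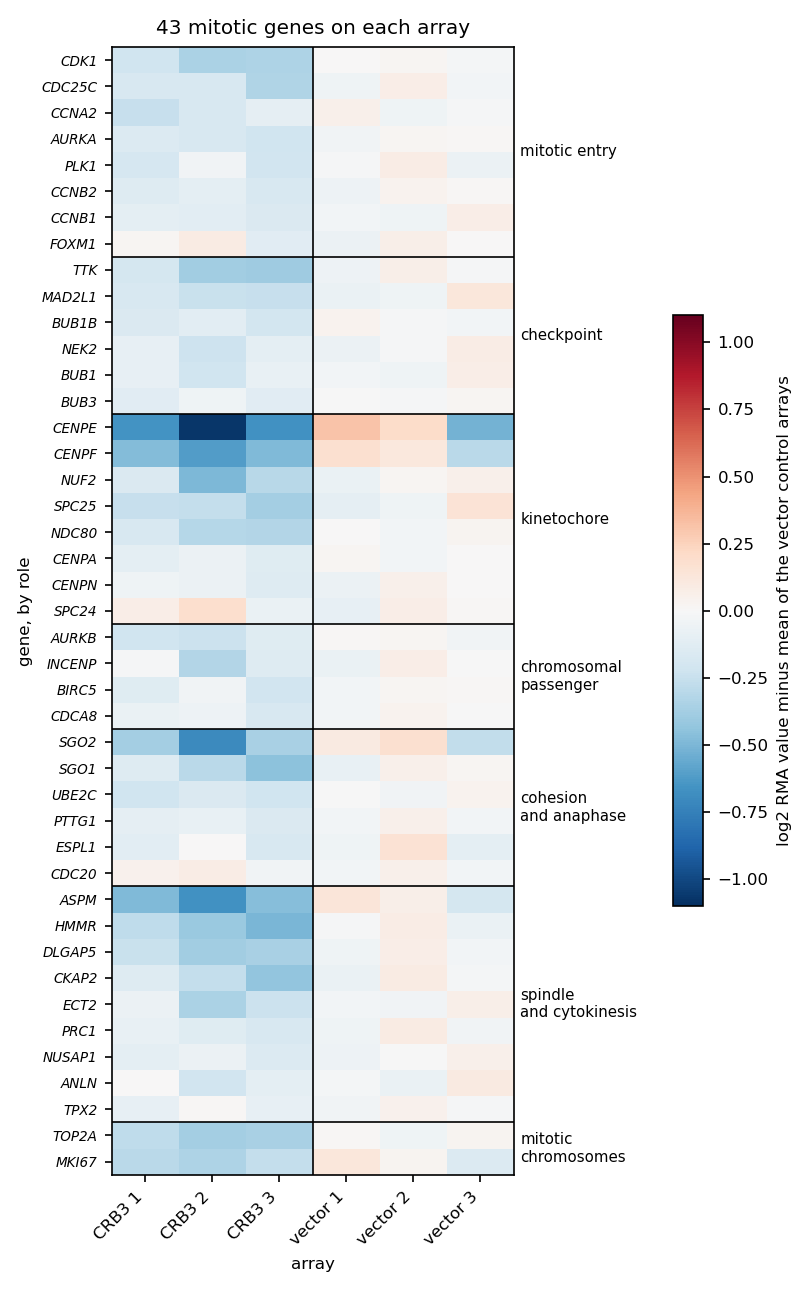
Log2 level of each of the 43 mitotic genes (rows, grouped by role) on each of the 6 arrays (columns, CRB3-expressing left, vector control right), as the difference from the mean of the 3 vector control arrays. The CRB3-expressing columns hold 39, 39 and 43 genes below 0, and in the column of vector control replicate 3 CENPE, CENPF, SGO2, ASPM and MKI67 lie below the other vector control arrays.

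The shift was present on each of the CRB3-expressing arrays. Measured from the mean of the vector control arrays, the median member stood at -0.1421, -0.2137 and -0.2098 on the CRB3-expressing arrays and at -0.0278, 0.0334 and -0.0007 on the vector control arrays. The same median over all genes lay between -0.0111 and 0.0141 on the 6 arrays. The lowest of a gene's 6 readings was on CRB3-expressing replicate 3 for 25 members, on replicate 2 for 15, on replicate 1 for 2, and on vector control replicate 1 for 1.

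Among the 8 genes of mitotic entry, the median log2 difference was -0.16, and 6 were lower with no overlap, against 12.1% of all genes. CDK1, the kinase that drives entry into mitosis, was read at 11.91, 11.78 and 11.79 in CRB3-expressing cells, against 12.13, 12.15 and 12.11 in vector controls. It was 19.0% lower, a log2 difference of -0.30 ± 0.0639 (SE, n = 3 each) with an adjusted p of 0.0366 from limma, and each CRB3-expressing array was below each vector control array. Its partner cyclin B1, CCNB1, was read at 12.32, 12.31 and 12.27 in CRB3-expressing cells, against 12.40, 12.38 and 12.50 in vector controls. The groups did not overlap for CCNB1 either, yet its difference of -0.13 ± 0.0634 did not pass the test (limma adjusted p = 0.367).

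AURKA, the centrosomal Aurora kinase, stood at 11.42, 11.39 and 11.35 in CRB3-expressing cells, against 11.53, 11.59 and 11.58 in vector controls, with no overlap, a difference of -0.18 and a limma adjusted p of 0.177. PLK1, the polo-like kinase that acts in entry, spindle assembly and cytokinesis, stood at 10.92, 11.07 and 10.90 in CRB3-expressing cells, against 11.09, 11.19 and 11.04 in vector controls. CRB3-expressing replicate 2 lay above vector control replicate 3, so the groups overlapped for PLK1, which differed by -0.15 (limma adjusted p = 0.382). FOXM1, a transcription factor of G2 and M phase genes, was read at 10.47, 10.54 and 10.32 in CRB3-expressing cells, against 10.38, 10.51 and 10.45 in vector controls. The vector control readings lay inside the range of the CRB3-expressing ones, and the log2 difference of FOXM1 was -0.01 ± 0.0751, with a 95% interval between -0.176 and 0.165. The other 3 genes, the cyclins CCNA2 and CCNB2 and the CDK1 phosphatase CDC25C, differed by -0.18, -0.14 and -0.23 with no overlap, and none passed the limma test after adjustment.

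All 6 checkpoint genes were lower with no overlap, against 12.1% of all genes, by small amounts (median -0.15). By the test, 0 of the 6 had a limma adjusted p under 0.05, although 3 were lower at an unadjusted p under 0.05, against 8.39% of all genes. TTK, the MPS1 kinase that acts at the top of the checkpoint, was read at 9.67, 9.48 and 9.47 in CRB3-expressing cells, against 9.81, 9.93 and 9.85 in vector controls. Its difference of -0.33 ± 0.0753 missed the threshold with a limma adjusted p of 0.0537. MAD2L1, which encodes the checkpoint protein MAD2, stood at 11.93, 11.86 and 11.85 in CRB3-expressing cells, against 12.03, 12.06 and 12.23 in vector controls, a difference of -0.22 ± 0.0726 (limma adjusted p = 0.165). For BUB1, a checkpoint kinase of the kinetochore, the readings were 9.93, 9.80 and 9.94 in CRB3-expressing cells, against 9.99, 9.98 and 10.10 in vector controls. The gap between the groups was narrow for BUB1, whose highest CRB3-expressing reading was 9.94 and whose lowest vector control reading was 9.98. BUB1B, BUB3 and NEK2, which encode BUBR1, the partner of BUB1 and BUBR1, and a centrosome and kinetochore kinase, differed by -0.16, -0.10 and -0.14.

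The 8 kinetochore genes had a median of -0.28 and included both the lowest and the highest difference of the set. CENPE, a kinesin that moves chromosomes along spindle microtubules, was read at 8.22, 7.81 and 8.21 in CRB3-expressing cells, against 9.19, 9.08 and 8.36 in vector controls. Vector control replicate 3 was far below the other vector control arrays and close to the CRB3-expressing arrays, and the difference of -0.80 ± 0.205, a level 42.6% lower, had a limma adjusted p of 0.0789. CENPF, a large protein of the outer kinetochore, was read at 10.79, 10.65 and 10.78 in CRB3-expressing cells, against 11.44, 11.38 and 10.97 in vector controls. Again vector control replicate 3 was the lowest of its group, and the difference of CENPF was -0.52 ± 0.118, or 30.5% lower, with an adjusted p of 0.0491 from limma.

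Without vector control replicate 3, which was also the lowest vector control array for SGO2, ASPM and MKI67, 4 members passed both thresholds by limma. These were CENPE with a log2 difference of -1.06 (adjusted p = 0.00464), CENPF with -0.67 (adjusted p = 0.00385), ASPM with -0.64 (adjusted p = 0.00782) and SGO2 with -0.62 (adjusted p = 0.0338). On that array the reading lay under the lower of the other vector control readings by 0.72 for CENPE, 0.41 for CENPF, 0.37 for SGO2, 0.25 for ASPM and 0.18 for MKI67, and by at most 0.06 for any other member. Leaving out the lowest vector control reading of these genes widens their differences by construction. These readings are of the brightest probe sets, and other probe sets did not all share the pattern. In vector control replicates 1, 2 and 3, a second probe set of SGO2 was read at 8.41, 7.36 and 7.27. Those of ASPM were read at 8.37, 7.67 and 7.64, and at 7.85, 7.24 and 7.27. There replicate 1 stood high and replicates 2 and 3 were alike. For the other probe sets of CENPF and MKI67, replicate 3 was again the lowest. The share of all genes called without that array is not given here.

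The 4 subunits of the NDC80 complex, which binds microtubules to the kinetochore, did not all have the same sign. NDC80 itself stood at 9.08, 8.95 and 8.94 in CRB3-expressing cells, against 9.26, 9.23 and 9.29 in vector controls, with no overlap, a difference of -0.27 ± 0.0649 and a limma adjusted p of 0.0644. NUF2 and SPC25 also did not overlap, with differences of -0.32 and -0.30 (limma adjusted p = 0.11 and 0.0938). SPC24 was read at 9.28, 9.39 and 9.13 in CRB3-expressing cells, against 9.12, 9.28 and 9.22 in vector controls. The ranges of SPC24 overlapped, and its difference was 0.06 ± 0.0824 with a 95% interval between -0.127 and 0.247. CENPA, the histone H3 variant that marks centromeres, was read at 9.85, 9.89 and 9.82 in CRB3-expressing cells, against 9.98, 9.93 and 9.96 in vector controls, a difference of -0.10 ± 0.0588 that did not pass the test (limma adjusted p = 0.435). CENPN, which binds CENP-A nucleosomes, overlapped between the groups with a difference of -0.08.

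The chromosomal passenger complex corrects faulty attachments and then moves to the spindle midzone, and its 4 genes had a median of -0.15. AURKB, its kinase, was read at 9.76, 9.74 and 9.84 in CRB3-expressing cells, against 9.99, 10.00 and 9.94 in vector controls, with no overlap, a difference of -0.20 ± 0.0619 and a limma adjusted p of 0.148. BIRC5, which encodes survivin, stood at 11.16, 11.25 and 11.08 in CRB3-expressing cells, against 11.26, 11.31 and 11.30 in vector controls. The highest CRB3-expressing reading of BIRC5 was only just below the lowest vector control reading, and its limma adjusted p was 0.394. CDCA8, which encodes borealin, differed by -0.10 with no overlap, and INCENP, the scaffold of the complex, by -0.17 with overlap.

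The 6 genes of cohesion and anaphase had a median of -0.16, and 0 of them passed the limma test after adjustment. At an unadjusted limma p under 0.05, 3 of the 6 were lower, against 8.39% of all genes. SGO2, a shugoshin that protects cohesin at centromeres, was read at 8.07, 7.74 and 8.09 in CRB3-expressing cells, against 8.54, 8.62 and 8.17 in vector controls, 28.3% lower with a limma adjusted p of 0.103. As for CENPE, vector control replicate 3 was the lowest of its group and close to the CRB3-expressing arrays. SGO1, the other shugoshin, averaged 6.59 in CRB3-expressing cells, against 6.89 in vector controls, near the level at which CDKN2A was read, so its difference of -0.30 rests on a dim probe set. A second SGO1 probe set at a similar level averaged 6.59 in CRB3-expressing cells, against 6.66 in vector controls. Its difference was -0.07 with overlap (limma adjusted p = 0.739). CDC20, the activator of the anaphase-promoting complex that the checkpoint restrains, stood at 12.20, 12.24 and 12.12 in CRB3-expressing cells, against 12.13, 12.21 and 12.13 in vector controls. The groups overlapped for CDC20, and its difference of 0.02 ± 0.0639 had a 95% interval between -0.121 and 0.170. UBE2C, the ubiquitin-conjugating enzyme of that complex, and PTTG1, which encodes securin, differed by -0.20 and -0.12 with no overlap. ESPL1, which encodes separase, the protease that cleaves cohesin, differed by -0.10 with overlap.

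Of the 6 genes that passed the test without the fold threshold, 3 belonged to the 9 genes of the spindle and cytokinesis, whose median was -0.22. ASPM, a protein of spindle poles, was read at 10.87, 10.69 and 10.89 in CRB3-expressing cells, against 11.49, 11.42 and 11.16 in vector controls, a difference of -0.54 ± 0.0978, or 31.2% lower, with a limma adjusted p of 0.018. HMMR, a hyaluronan receptor that also binds spindle microtubules, was read at 10.90, 10.77 and 10.68 in CRB3-expressing cells, against 11.17, 11.26 and 11.11 in vector controls, 24.0% lower with a limma adjusted p of 0.0251. DLGAP5, which encodes the kinetochore fibre protein HURP, stood at 10.65, 10.51 and 10.54 in CRB3-expressing cells, against 10.85, 10.97 and 10.86 in vector controls, 20.2% lower with a limma adjusted p of 0.0374. For all 3 genes the groups were separate. Among the other genes of this role, CKAP2, ECT2, PRC1 and NUSAP1 differed by -0.27, -0.22, -0.13 and -0.11 with no overlap, while ANLN and TPX2 overlapped with differences of -0.10 and -0.06. CKAP2 is a spindle protein, ECT2 a RhoGEF of cytokinesis, PRC1 a bundler of midzone microtubules, NUSAP1 a microtubule-binding protein, ANLN the anillin of the contractile ring and TPX2 the activator of Aurora A.

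TOP2A, the DNA topoisomerase that untangles sister chromatids, had the smallest p of the 43. It was read at 11.02, 10.93 and 10.95 in CRB3-expressing cells, against 11.32, 11.26 and 11.33 in vector controls, a difference of -0.34 ± 0.0613, or 21.0% lower, with a limma adjusted p of 0.0175. The 3 readings of each group lay close together, and the gap between the groups was wider than either group's range. MKI67, whose product Ki67 coats mitotic chromosomes and is the usual stain for proliferating cells, was read at 10.77, 10.72 and 10.80 in CRB3-expressing cells, against 11.19, 11.09 and 10.91 in vector controls. The groups were separate, and the difference of MKI67 was -0.30 ± 0.0814, or 19.0% lower, with a limma adjusted p of 0.0919.

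**Figure D2:**
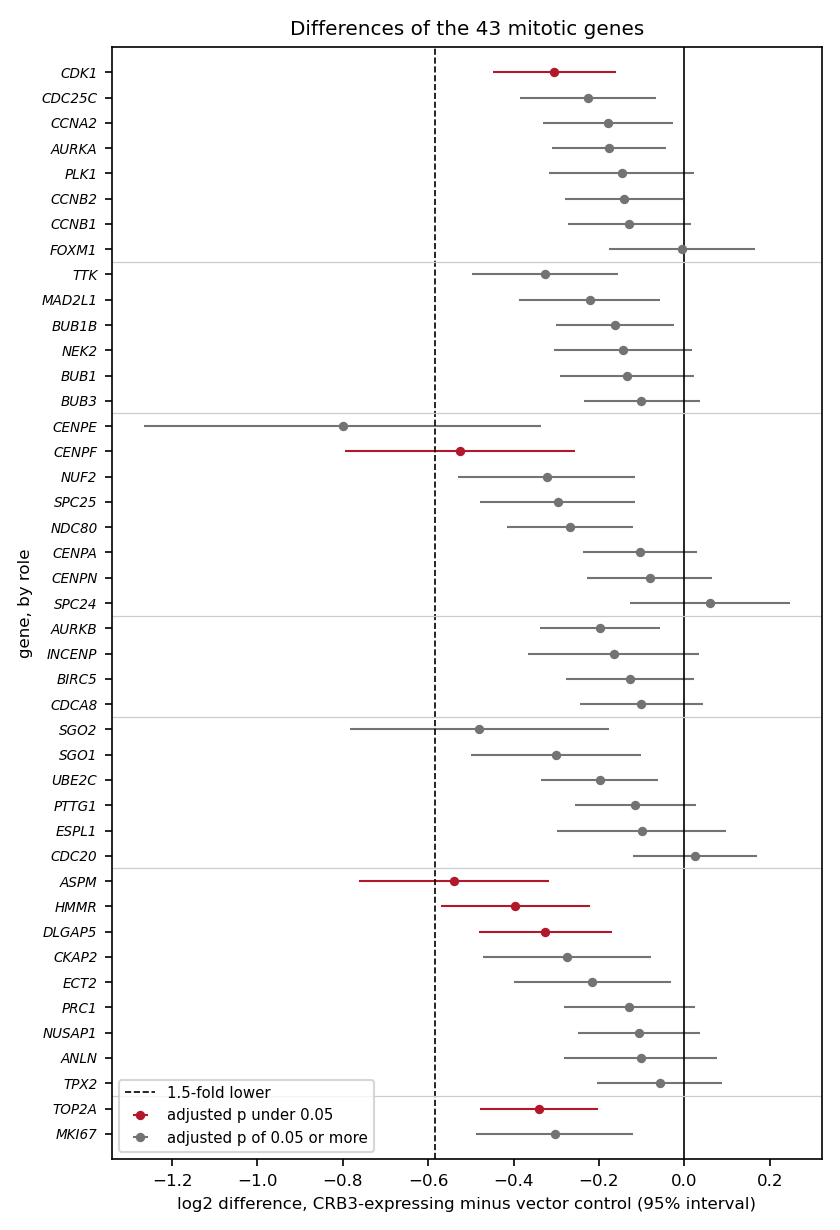
Log2 difference, CRB3-expressing minus vector control, of each of the 43 mitotic genes (points, n = 3 arrays each) with its 95% interval from limma (lines), ordered by role. The points run between -0.80 for CENPE and 0.06 for SPC24, and the dashed line marks the 1.5-fold threshold.

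The brighter probe sets of a gene gave differences of the same sign, and the dim ones did not. The 43 genes had 93 probe sets, 26 genes with several and 17 with a single probe set, and 7 further probe sets shared between CENPA or CKAP2 and another gene were not used. Of the 76 with a mean of at least 6, 73 had a mean difference below 0 and 10 had a limma adjusted p under 0.05, each of these lower. Over all 54613 probe sets, 49.6% were below 0 and 759 were lower by that test. The remaining 17 were dimmer, and 7 of them were below 0 and 10 above. For 23 genes several probe sets had a mean of at least 6, and these were all below 0 for 22 genes and all above 0 for 1, SPC24. Some of them lay below the level at which CDKN2A was read and were not shown to exceed background. Among these was the second probe set of SPC24, with means of 6.15 in CRB3-expressing cells, against 6.06 in vector controls.

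All 4 probe sets of MKI67 were lower in CRB3-expressing cells, by -0.30, -0.21, -0.35 and -0.32, and the last 2 of these had limma adjusted p-values of 0.0286 and 0.043. A second probe set of TOP2A differed by -0.47 (limma adjusted p = 0.047). For CDK1, ASPM and HMMR the other probe sets did not pass. Those of CDK1 with a mean of at least 6 differed by -0.20 and -0.17 (limma adjusted p = 0.352 and 0.486, the latter with overlap). Those of ASPM differed by -0.60 and -0.32 (limma adjusted p = 0.149 and 0.332, the latter with overlap). That of HMMR differed by -0.33 (limma adjusted p = 0.0626). Averaged over its probe sets, CDK1 differed by -0.20 (limma adjusted p = 0.224). The single member probe set past both thresholds was the second one of CENPF, which was read at 6.90, 6.67 and 6.77 in CRB3-expressing cells, against 7.62, 7.58 and 7.10 in vector controls. Its difference was -0.65 ± 0.135 with a limma adjusted p of 0.0338, and vector control replicate 3 was again the lowest of its group. Its CRB3-expressing mean of 6.78 lay below the level at which CDKN2A was read and was not shown to exceed background, and the size of this difference is uncertain.

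**Figure D3:**
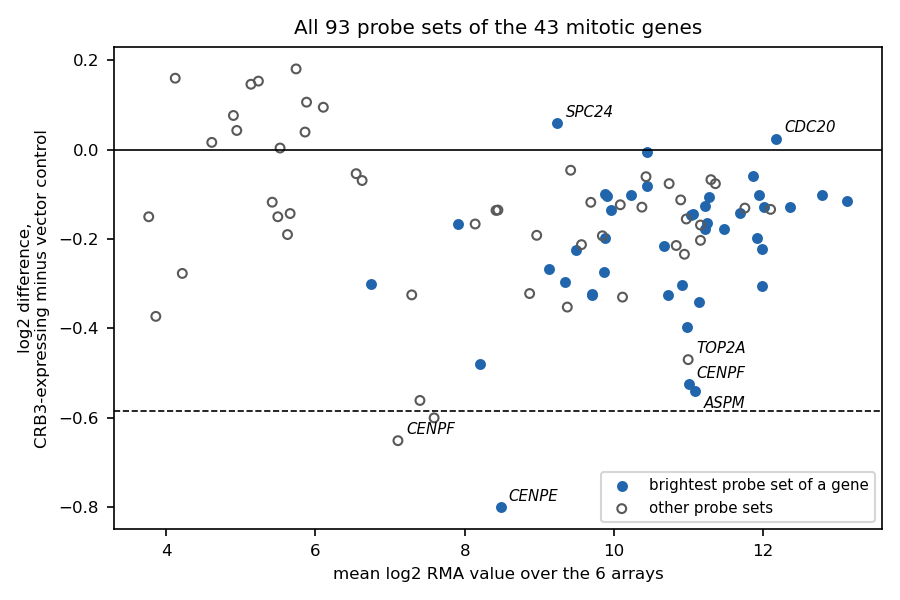
Log2 difference, CRB3-expressing minus vector control, against the mean log2 level over the 6 arrays for all 93 probe sets of the 43 mitotic genes (filled points, the brightest probe set of each gene; open points, the others). Of the 76 probe sets with a mean of at least 6, 73 lie below 0, and of the 17 dimmer ones 10 lie above it.

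Genes of this class are known for a promoter element called the cell cycle homology region (CHR), which in human cells binds the MuvB complex, often next to CCAAT boxes bound by NF-Y. RefSeq promoter windows of the build GRCh38.p14 (300 bases, 250 before to 50 after a transcription start) were matched by symbol for 36 of the 43 genes, 44 windows in all. AURKA, BIRC5, BUB3, FOXM1, TPX2, TTK and UBE2C were not matched. TTTGAA or TTCGAA, the letters searched for the CHR on both strands, stood in 68.2% of the 44 windows and in 16.4% of all 35116 windows. CCAAT on either strand stood in 79.5% of the windows of these genes and in 34.6% of all windows, and both motifs together in 56.8% and 6.38%. The E2F spellings TTTGGCGC, TTTGCCGC, TTTCGCGC and TTTCCCGC stood in 9.09% and 3.31%. A match of this kind describes the letters and is not evidence of binding.

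The 150 bases before the start are shown, 5′ to 3′ on the strand of the gene, for 4 genes, chosen to set genes that passed the test beside genes that did not. They are ASPM (chr1:197146670-197146819, minus strand) and HMMR (chr5:163460482-163460631, plus strand), which passed the test without the fold threshold, the proliferation marker MKI67 (chr10:128126424-128126573, minus strand), and CDC20 (chr1:43358831-43358980, plus strand), whose difference was 0.02. Neither MKI67, by its brightest probe set, nor CDC20 passed the test. Capitals mark the CHR letters (TTTGAA, or TTCAAA on the opposite strand) and the CCAAT boxes (CCAAT, or ATTGG on the opposite strand).
ASPM: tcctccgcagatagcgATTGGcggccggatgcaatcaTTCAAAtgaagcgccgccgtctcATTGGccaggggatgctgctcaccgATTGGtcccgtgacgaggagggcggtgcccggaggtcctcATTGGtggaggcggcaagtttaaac
HMMR: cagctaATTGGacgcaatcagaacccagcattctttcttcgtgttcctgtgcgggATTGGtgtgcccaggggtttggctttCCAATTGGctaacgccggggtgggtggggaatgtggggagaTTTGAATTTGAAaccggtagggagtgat
MKI67: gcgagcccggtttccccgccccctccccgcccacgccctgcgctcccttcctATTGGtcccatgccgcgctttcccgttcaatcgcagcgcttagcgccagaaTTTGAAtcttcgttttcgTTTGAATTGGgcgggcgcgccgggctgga
CDC20: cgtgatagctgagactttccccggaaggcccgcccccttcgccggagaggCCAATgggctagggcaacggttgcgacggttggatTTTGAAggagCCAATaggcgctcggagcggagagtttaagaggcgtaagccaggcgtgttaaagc
HMMR held 2 CHR matches in direct succession, the nearer one starting 22 bases before the start of transcription, and its CCAATTGG reads as a CCAAT box on both strands. MKI67 also held 2 CHR matches, and its second one overlaps an ATTGG. ASPM held 1 CHR match on the opposite strand among 4 CCAAT boxes. CDC20, which did not pass the test, held 1 CHR match and 2 CCAAT boxes. Whether these letters bear on the differences was not tested. The 27 members with a CHR match had a median log2 difference of -0.22, with a range between -0.54 and 0.02, and the 9 without a match had a median of -0.18, among them CENPE at -0.80 and SPC24 at 0.06. The 7 unmatched members had a median of -0.13.

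Other genes of the cell cycle were counted from lists chosen with earlier results of these data known. Of 54 measured among 55 other mitotic genes, 48 had a mean difference below 0, against 47.7% of all genes, and the median was -0.12. With no overlap 24 were lower and 2 higher, against 12.1% and 14.5% of all genes, and at a limma adjusted p under 0.05, 5 were lower and 0 higher, against 1.77% and 3.37%. The 2 with the smallest p were KIF18A, a kinesin that limits chromosome oscillation, with a difference of -0.52 (limma adjusted p = 0.00496), and KIF14, a kinesin of cytokinesis, with -0.56 (limma adjusted p = 0.00944). All 21 cohesin and condensin genes had a mean below 0, with a median of -0.18, and by the same test 4 of them were lower and 0 higher. They were led by SMC3, a cohesin subunit, at -0.47 (limma adjusted p = 0.0142), and NCAPG, a condensin subunit, at -0.38 (limma adjusted p = 0.0185).

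In 3 further lists, 0 genes were lower at a limma adjusted p under 0.05. Of 16 measured genes of the anaphase-promoting complex and its inhibitors, 2 were lower and 1 higher at an unadjusted p under 0.05, against 8.39% and 10.4% of all genes, and the median was -0.02. Those with the smallest p were FBXO5, an inhibitor of the complex, at -0.27 (limma adjusted p = 0.0543), and the subunit gene ANAPC15 at 0.17 (limma adjusted p = 0.216). Of 44 measured genes of DNA replication and S phase, 15 were lower and 0 higher at an unadjusted limma p under 0.05, against 8.39% and 10.4% of all genes. With no overlap 25 were lower and 1 higher, against 12.1% and 14.5%, and the median was -0.11. RRM1, a ribonucleotide reductase subunit, differed by -0.19 and MCM10, a replication initiation factor, by -0.20 (limma adjusted p = 0.134 and 0.143). Of 23 measured regulators of cell cycle transcription, 4 were lower and 2 higher at an unadjusted p under 0.05, against the same 8.39% and 10.4%, and the median was -0.05. NFYB, a subunit of the CCAAT-binding factor NF-Y, was higher by 0.29 (limma adjusted p = 0.0288), and LIN9, a subunit of MuvB, differed by -0.30 (limma adjusted p = 0.0653).

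Of 17 measured genes in the list of G1 cyclins and CDK inhibitors, 2 were called higher and 0 lower by limma, against 1.43% and 0.465% of all genes. The list also held CDKs, CDC25 phosphatases and other CDK regulators, so it was mixed. At an unadjusted limma p under 0.05, 3 were lower and 3 higher, against 8.39% and 10.4% of all genes. The median was 0.01. CDKN1C, which encodes the CDK inhibitor p57, was read at 8.96, 9.10 and 9.03 in CRB3-expressing cells, against 6.44, 6.44 and 6.59 in vector controls, 5.82-fold higher (limma adjusted p = 3.43e-07). CCND2, which encodes cyclin D2, was read at 11.74, 11.86 and 11.91 in CRB3-expressing cells, against 11.10, 11.08 and 11.05 in vector controls, 1.69-fold higher (limma adjusted p = 0.000305). CDKN1A, which encodes the CDK inhibitor p21 and was singled out after its values were seen, was read at 11.23, 11.25 and 11.22 in CRB3-expressing cells, against 10.76, 10.80 and 10.65 in vector controls, 1.41-fold higher (limma adjusted p = 0.00285). For CDKN1C, CCND2 and CDKN1A every CRB3-expressing array was above every vector control array, opposite in direction to CDK1 and TOP2A. The list did not move as a whole, with 9 genes above 0 and 8 below. CDKN1B, another CDK inhibitor gene, and CDK4 were lower by -0.18 and -0.09 with no overlap. CDC25B and CDK6 differed by -0.30 and -0.18 with overlap. None of these 4 had a limma adjusted p under 0.05. The vector control readings of CDKN1C lay below the level at which CDKN2A was read, so they were not shown to be above background.

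**Figure D4:**
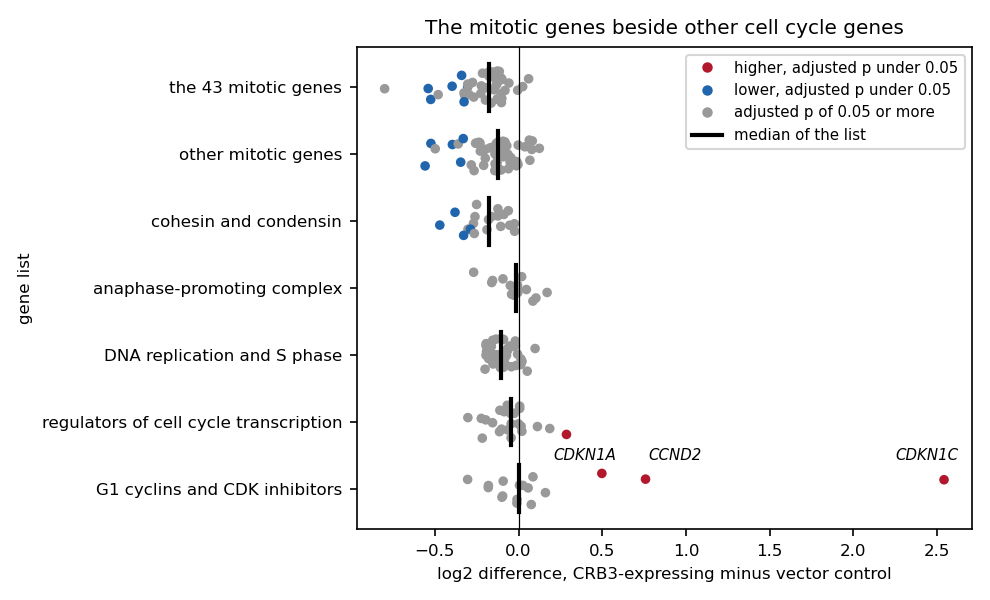
Log2 difference, CRB3-expressing minus vector control, of each gene (points) in the 43 mitotic genes and in 6 other cell cycle lists (rows), with the median of each list (bars) and colour by limma adjusted p. The medians lie between -0.18 for the 43 genes and for cohesin and condensin and 0.01 for the list of G1 cyclins and CDK inhibitors. That list also holds CDKs, CDC25 phosphatases and other CDK regulators, and in it CDKN1C, CCND2 and CDKN1A stand to the right.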

How the data were processed

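RNA of MCF-10A cells was hybridised to Affymetrix Human Genome U133 Plus arrays, 3 per group. The authors normalized the arrays together with Robust Multichip Average and deposited 1 log2 value per probe set; software versions are not given in the sources used here. These values were fitted with limma 3.58.1 in R 4.3.3 (lmFit, eBayes, CRB3-expressing minus vector control), with Benjamini-Hochberg adjustment over 54613 probe sets. A gene was called when its fold change exceeded 1.5 with an adjusted p below 0.05, as in the study's methods. Symbols came from the platform annotation. The files hold no detection calls, and precision is limited by the number of arrays. The 43 members, the lists and the tests were chosen with earlier results of these data known. Array values are printed for members called, the 8 members with the smallest p, the highest and lowest difference, and 14 well-known members; of each other cell cycle list, called genes or the 2 with the smallest p are named. SGO2, CDKN1A, CDKN1B, CDK4, CDC25B, CDK6 and the marker genes are outside this rule. Alternatives were the replicate block, other variance priors, scalings, filters, array weights, thresholds and probe set rules, and leaving out each array.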

Additional observations from a re-analysis of the deposited data

How the results depend on the processing

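The median log2 difference lay between -0.1910 and -0.1633 under every alternative run. Members called lower numbered 0, but 1 (CENPE) with probe sets of mean under 6 left out, 6 without the fold threshold, 1 (CENPF) where any probe set counts, and 0 to 4 with 1 array left out. Members with an adjusted p under 0.05 numbered 6, but 20 with a trend and robust prior, 1 with ordinary pooled variance, 13 without probe sets of mean under 6, and 0 to 6 with 1 array left out. That count was 0 without CRB3-expressing replicate 2 or without vector control replicate 1, 1 without CRB3-expressing replicate 3 or without vector control replicate 2, and 6 without vector control replicate 3, of which 3 were among the original 6. With the replicate number as a block, 2 members passed (HMMR and ASPM); the numbers did not pair the samples (correlations of deviations -0.0848, 0.0638 and 0.0292). The cause of these shifts was not tested, beyond the smaller number of arrays or of probe sets adjusted over. The shares of all genes called or passing under the alternatives are not given here. With 1 array left out, SPC24 ranged between -0.0009 and 0.1282, CDC20 between -0.0028 and 0.0582 and FOXM1 between -0.0525 and 0.0542, so these 3 have no settled sign. AURKA was 0.1534 where probe sets ending in _x_at or _s_at were left out, which takes a dim probe set with means of 5.31 in CRB3-expressing cells, against 5.16 in the vector control. Of 332 values of named members, 264 kept their side of the threshold and sign, 43 lost the threshold, 20 gained it and 5 changed sign. Only the 6 members that passed in the main fit could lose the threshold. Of 16 alternatives each, the adjusted p stayed under 0.05 in 11 for TOP2A and HMMR and 9 for ASPM. It did so in 8 for CDK1 and DLGAP5 and 6 for CENPF.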
